A study of Mus musculus with 3 samples.

Results

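Il21 and Il2 encode cytokines of CD4 T cells and lie next to each other on mouse chromosome 3, both on the minus strand. The stretch described here runs from 37010000 to 37150000 on chromosome 3 of the mm9 build, 140 kb in all. It was chosen because it holds both genes, with the Il21 start near 37131200 and the Il2 start near 37024500, so these are 2 genes of 49997 in the RefSeq mouse gene table. All reads of 3 chromatin immunoprecipitation sequencing (ChIP-seq) libraries inside it were counted, 1 library for each of STAT3-deficient H3K4me3, wild-type H3K4me3 and wild-type phospho-STAT3. H3K4me3 is a histone mark found at active promoters, and the phospho-STAT3 antibody recognises STAT3 phosphorylated on serine.

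The STAT3-deficient cells were Stat3fl/fl FoxP3-GFP with CD4-Cre, in which a Cre recombinase under control of Cd4 sequences removes the floxed Stat3 allele in T cells. The wild-type cells were Stat3fl/fl FoxP3-GFP without Cre, so all groups carried the floxed allele and the FoxP3-GFP reporter. In both genotypes, sorted naive CD4 T cells were cultured for 72 h on anti-CD3 and anti-CD28 in the presence of IL-6 (10 ng/ml) together with TGF-b (2.5 ng/ml), cytokines that turn naive cells into Th17 cells, the makers of IL-17. Antibodies blocked IL-2, IL-4 and IFN-g during the culture, so the protein made from one of the genes described here was neutralised in every group. IL-6 was given again for 1 h before the chromatin was taken. Age, sex and number of mice are not stated in the labels. Stat3 itself and T cell marker genes were not placed on mm9 here, so neither the genotype label nor the cell type was checked at those genes.

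IL-21 is made by Th17 and follicular helper T cells and acts on B cells and on T cells themselves. In Th17 cells it is induced by IL-6 through STAT3, and because the IL-21 receptor also signals through STAT3, it can feed back on the cells that make it. IL-2 is the growth factor that T cells make soon after stimulation of the antigen receptor, it signals mainly through STAT5, and it restrains the Th17 state. In the gene order of the RefSeq table the pair is separated by 2 genes, both listed as long non-coding RNAs (Gm36000 and Gm12532), and a further long non-coding RNA gene, Gm36168, follows the Il21 entry.

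The sequences around both annotated starts are shown for the genes whose promoter windows are compared below. They are given for the gene strand, from 250 bases before to 50 bases after the start, from RefSeq on build GRCm38.p6 (minus strand, chr3:37232587-37232886 for Il21 and chr3:37125905-37126204 for Il2), and these coordinates are not comparable with the mm9 positions elsewhere in the text. The sequences were not aligned to mm9, and the mm9 starts used for the windows are approximate, so where in a window these bases fall was not determined. Capitals mark matches, on either strand, to the NFAT core GGAAAA or to the TATA box TATAAA.
Il21: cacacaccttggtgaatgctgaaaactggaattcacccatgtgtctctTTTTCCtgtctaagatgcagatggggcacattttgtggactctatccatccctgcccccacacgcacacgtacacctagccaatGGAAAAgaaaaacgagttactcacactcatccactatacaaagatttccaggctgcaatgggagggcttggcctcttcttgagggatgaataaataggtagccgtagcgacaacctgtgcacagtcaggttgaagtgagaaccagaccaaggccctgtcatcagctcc
Il2: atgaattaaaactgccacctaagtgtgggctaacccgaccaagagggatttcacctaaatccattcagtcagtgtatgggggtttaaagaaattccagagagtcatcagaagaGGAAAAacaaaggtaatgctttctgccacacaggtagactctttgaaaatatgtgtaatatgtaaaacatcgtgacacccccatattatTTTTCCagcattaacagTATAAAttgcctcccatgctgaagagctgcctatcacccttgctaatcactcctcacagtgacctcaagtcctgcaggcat
Each promoter held 2 matches to the NFAT core, the sequence read by the calcium-activated NFAT factors, beginning 202 and 118 bases before the start in Il21 and 137 and 48 bases before it in Il2. Such a match was present in 23.4% of the 32851 promoters of the table. The match to TATAAA, 31 bases before the start, was in Il2 only of this pair, against 13.6% of all promoters. Neither promoter held the STAT motif TTCNNNGAA (8.30% of all promoters), its form with a longer spacer (6.95%) or the AP-1 motif TGANTCA (7.81%). These are statements about 300 bases only, and the sequence under the phospho-STAT3 sites reported below was not searched. The Il21 sequence held 5 CpG dinucleotides and the Il2 sequence 2, against a median of 7, and 43.6% of all promoters held 5 or fewer.

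Over the 140 kb there were 885 reads of STAT3-deficient H3K4me3, 1111 of wild-type H3K4me3 and 2125 of wild-type phospho-STAT3. The libraries held 12075963, 12281399 and 10127075 reads in the same order. Phospho-STAT3 reads were therefore dense here, at 15.2 reads per kb against 4.79 reads per mappable kb over the genome. H3K4me3 reads were less far above the genome level, at 6.32 per kb in the STAT3-deficient and 7.94 per kb in the wild-type library. Over the genome they were 5.71 and 5.81 per mappable kb. The locus values are per kb of all its bases, so the denominators differ. Each group had 1 library, so differences between genotypes stand without replicates and without a test. Every interval below is a 95% interval for counting error alone.

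**Figure D1:**
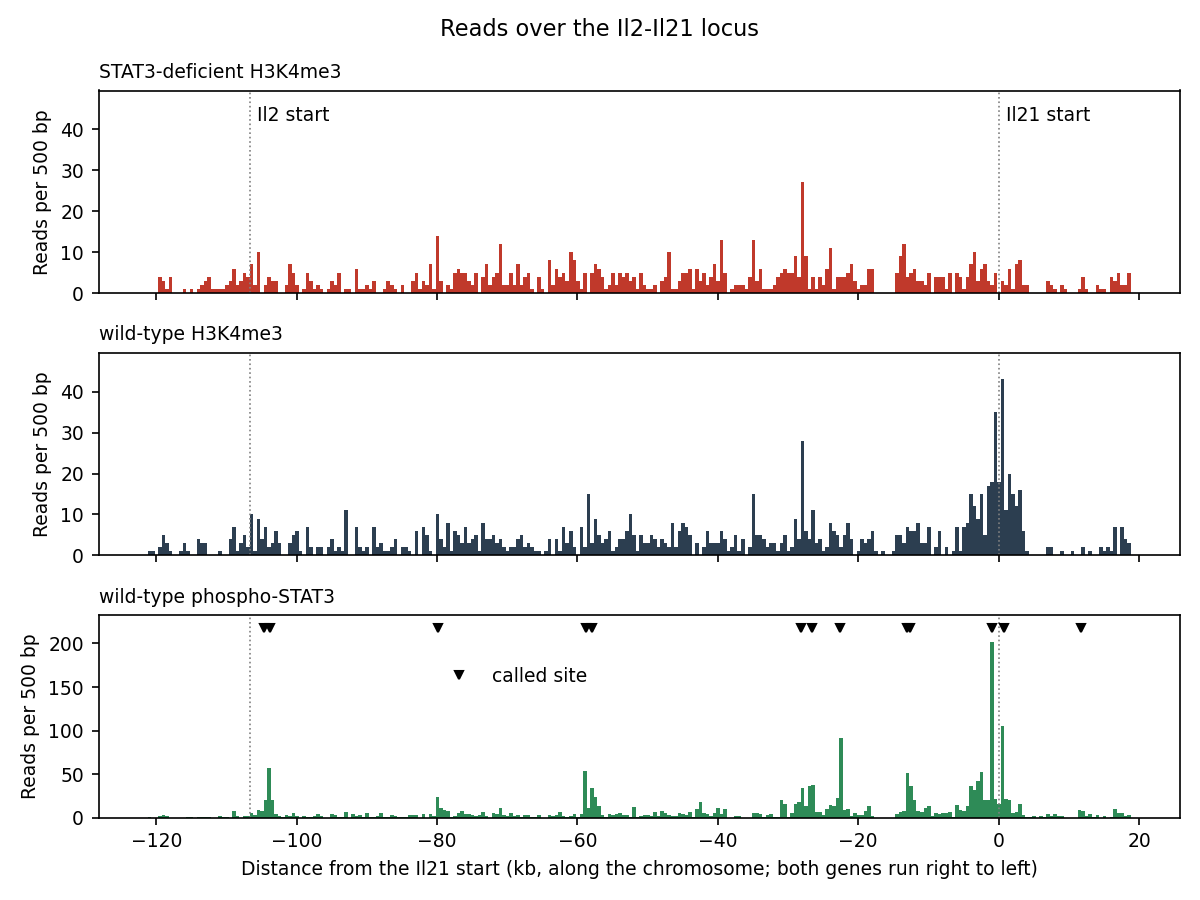
Reads per 500 bp over the locus in the 3 libraries, against distance from the Il21 start in kb; both H3K4me3 panels share 1 scale, dotted lines mark the starts and triangles the 13 called phospho-STAT3 sites. The tallest wild-type H3K4me3 window, 43 reads, is at the Il21 start, where the STAT3-deficient panel stays near its background.

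The first comparison asks whether H3K4me3 at either promoter depends on the Stat3 genotype. H3K4me3 at Il21 was high in wild-type cells and at the background level of the locus in STAT3-deficient cells. In the window of 2 kb each side of the Il21 start, STAT3-deficient cells had 25 reads (16.2 to 36.9) and wild-type cells 178 reads (153 to 206). Both intervals are far apart. No H3K4me3 region was called at Il2. In the same window around its start there were 33 reads (22.7 to 46.3) in STAT3-deficient and 35 reads (24.4 to 48.7) in wild-type cells, and these intervals overlap almost entirely.

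Ratios between the libraries were scaled so that the median log2 ratio of all marked H3K4me3 regions of the genome was 0, a marked region being one whose reads in the pair of libraries sum to 50 or more. On this scale the Il21 window was 8.74-fold lower in STAT3-deficient cells (5.73 to 13.9), a log2 ratio of -3.13 (-3.79 to -2.52). The Il2 window had a log2 ratio of -0.38 (-1.11 to 0.35), which at this depth leaves room for anything from 2.16-fold lower to slightly higher. In a mixed culture, fewer cells with the mark and less mark per cell cannot be told apart.

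The contrast between both genes can also be read within each library, where no scaling is needed. The Il21 window held 0.758 reads for each read of the Il2 window in STAT3-deficient cells, against 5.09 in wild-type cells. The ratio of these ratios was 0.150 (0.0753 to 0.295), so Il21 was 6.65-fold lower relative to Il2 (3.39 to 13.3). Widening the windows to 5 kb each side gave a log2 ratio of ratios of -1.62 (-2.28 to -0.97), against -2.73 (-3.73 to -1.76) with 2 kb.

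The background of the locus was taken from its reads outside called H3K4me3 regions, 819 STAT3-deficient and 911 wild-type reads, most of them from the stretch between the genes. Set against it, the Il21 window stood at 1.03 times background (0.670 to 1.53) in STAT3-deficient cells and at 6.62 times (5.69 to 7.67) in wild-type cells. The residual reads of the STAT3-deficient library were thus not distinguishable from this background at this depth. The Il2 window stood at 1.37 times background (0.940 to 1.92) in STAT3-deficient and at 1.30 times (0.907 to 1.81) in wild-type cells, and neither interval excludes this background. By side, the first 2 kb upstream of the Il2 start stood at 1.57 times background (0.947 to 2.46) in STAT3-deficient and at 1.79 times (1.14 to 2.66) in wild-type cells, with 19 and 24 reads. Within it, the segment 1000 to 1500 bp upstream held 10 STAT3-deficient and 9 wild-type reads, 3.31 times (1.59 to 6.09) and 2.68 times (1.23 to 5.09) background. It had the most STAT3-deficient reads of the segments around Il2. The segment 1500 to 2000 bp upstream held 0 and 4 reads, and that 500 to 1000 bp upstream 2 and 1. Over the whole 2 kb only the wild-type interval excluded background, so an upstream excess was not shown for both genotypes. The first 2 kb downstream of the Il2 start held 14 and 11 reads, near that background in both. The flanks of the locus were thinner. Below the Il2 window there were 3.12 STAT3-deficient and 3.20 wild-type reads per kb, and above the Il21 window 3.51 and 4.40. The Il2 window, at 8.25 and 8.75, and the STAT3-deficient Il21 window, at 6.25, were denser than these flanks. A level at background thus depends on this choice, and how much of the flanks can be uniquely aligned was not tested. Over the genome, marked regions held 8.14% of the STAT3-deficient and 6.48% of the wild-type H3K4me3 reads.

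**Figure D2:**
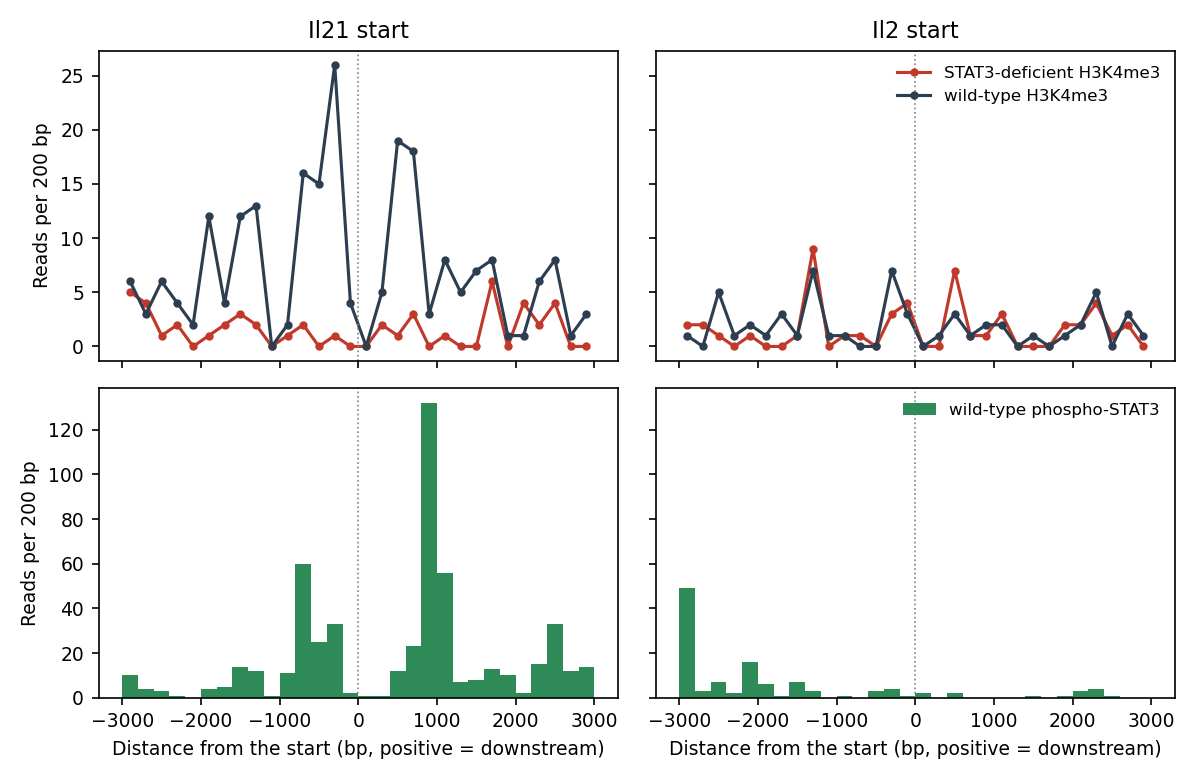
Reads per 200 bp within 3 kb of the Il21 start (left) and the Il2 start (right), with H3K4me3 of both genotypes above and phospho-STAT3 below; distance is in bp and positive downstream. Wild-type H3K4me3 rises on both sides of the Il21 start, around a phospho-STAT3 peak on each side, while both genotypes stay low at Il2.

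The difference at Il21 was on both sides of the start. Upstream, the first 2 kb held 12 reads in STAT3-deficient and 104 in wild-type cells, a log2 ratio of -3.41 (-4.41 to -2.55). Downstream, over the transcribed side, the first 2 kb held 13 and 74 reads in the same order, a log2 ratio of -2.81 (-3.78 to -1.94). These intervals overlap, so the sides were not shown to differ.

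In segments of 500 bp, each of the 8 segments within 2 kb of the Il21 start had fewer STAT3-deficient than wild-type reads. STAT3-deficient counts were between 1 and 6 reads per segment, around the locus background of 6.04 reads per kb. Wild-type counts were between 9 and 36, against a background of 6.72 reads per kb. The highest wild-type segments were the first 500 bp upstream, with 1 STAT3-deficient and 36 wild-type reads, and the segment 500 to 1000 bp downstream, with 4 and 36. Between them, the first 500 bp downstream held 2 STAT3-deficient and 9 wild-type reads, the lowest wild-type count of the 8. This mark usually dips at a start, where a gap in the nucleosomes separates the marked ones on either side. Phospho-STAT3 reads were few there too. The first 200 bp downstream held 0 STAT3-deficient H3K4me3, 0 wild-type H3K4me3 and 1 phospho-STAT3 reads. What gave the low count here was not tested, nor how much of the segment can be uniquely aligned.

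**Figure D3:**
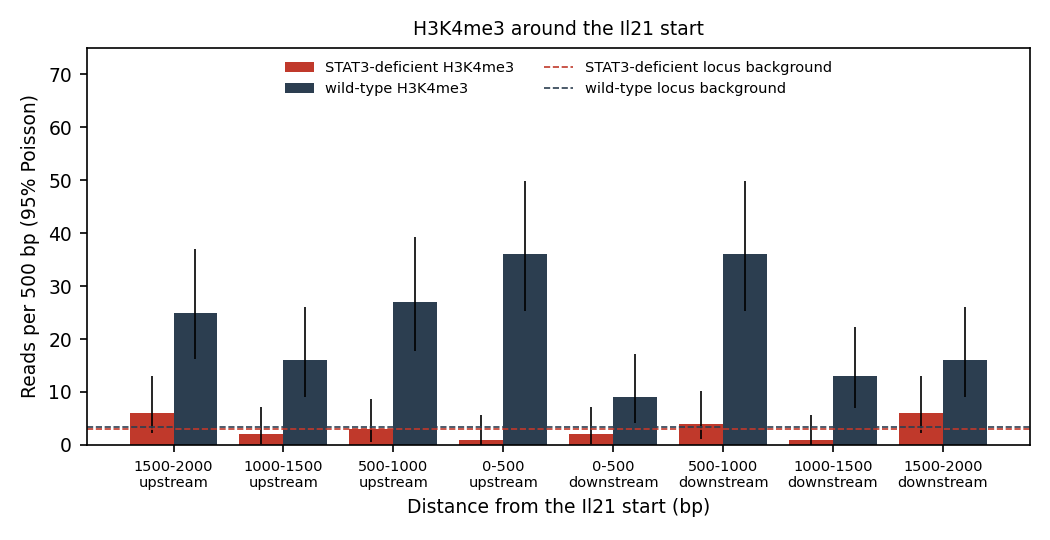
H3K4me3 reads in 500 bp segments around the Il21 start, upstream on the left, as bars with 95% Poisson intervals; dashed lines show the background of the locus outside called regions. STAT3-deficient bars lie between 1 and 6 reads and wild-type bars between 9 and 36.

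A smaller difference reached beyond the window. From 2 to 5 kb downstream of the Il21 start there were 35 STAT3-deficient and 65 wild-type reads, a log2 ratio of -1.19 (-1.83 to -0.57). From 2 to 5 kb upstream there were 19 and 38 reads in the same order, a log2 ratio of -1.30 (-2.17 to -0.47). By library totals these ratios were -0.87 (-1.51 to -0.25) and -0.98 (-1.85 to -0.15), so their direction held but they no longer reached 2-fold.

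Region calling over the whole genome, on both H3K4me3 libraries pooled, found 3 regions in the locus. The region at Il21 ran from 37130400 to 37133199, from 0.8 kb downstream to 2.0 kb upstream of the start, with 18 STAT3-deficient and 146 wild-type reads. Its log2 ratio was -3.32 (-4.11 to -2.61), and by library totals -3.00 (-3.79 to -2.28). A difference was counted when it was at least 2-fold and its interval excluded no change, which marked 1.16% of the 10971 marked regions as lower and 1.01% as higher in STAT3-deficient cells. By library totals, 54 regions were lower and 319 higher, against 127 and 111 here, and the Il21 region passed the rule as lower under either scaling. Called on the wild-type library alone the region had the same edges, and on the STAT3-deficient library alone it was not called, so it entered the list through the library in which it is high, and its place among the regions is no separate evidence. In wild-type cells it was a strong region, since 5.82% of marked regions had as many reads. The median marked region held 74 STAT3-deficient and 59 wild-type reads.

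The other called regions of the locus did not pass this rule. A region of 0.6 kb from 37103000 to 37103599, between 28.2 and 27.6 kb downstream of the Il21 start, held 32 STAT3-deficient and 30 wild-type reads, a log2 ratio of -0.20 (-0.97 to 0.57). It stood at 8.83 times background in STAT3-deficient and 7.44 times in wild-type cells, and held the tallest STAT3-deficient window of the locus, with 27 reads in 500 bp. With calling on the STAT3-deficient library alone this region was found, and on the wild-type library alone it was not. By read counts, an enriched stretch of the same locus was present in both libraries, with overlapping counting intervals. The other, from 37128600 to 37129599, held 16 and 24 reads, too few to count as marked, with a log2 ratio of -0.88 (-1.89 to 0.09).

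**Figure D4:**
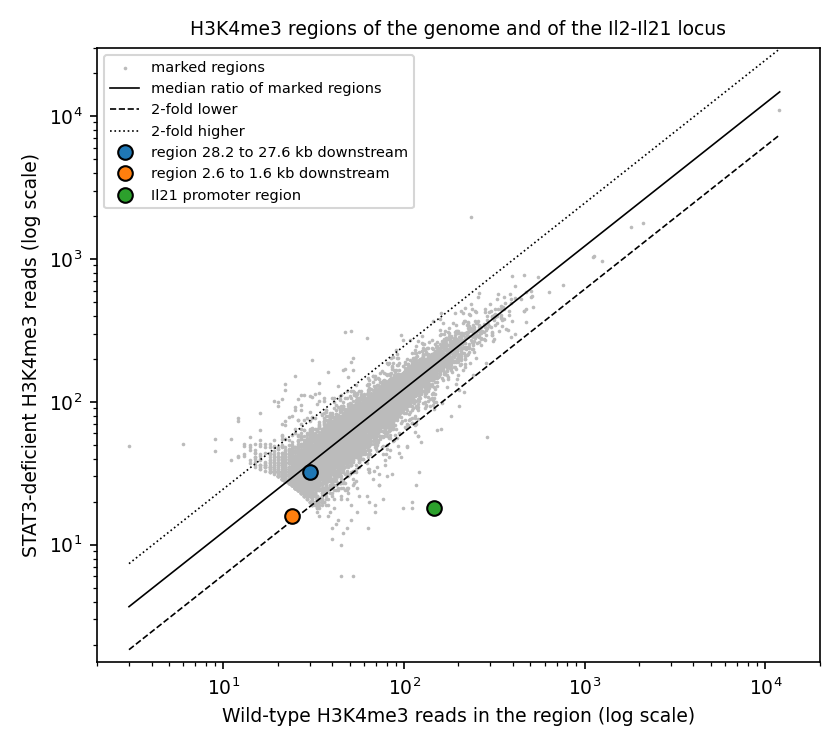
STAT3-deficient against wild-type H3K4me3 reads for all marked regions (grey, both axes logarithmic) and the 3 regions of the locus (large points); lines show the median ratio and 2-fold either side of it. The Il21 region, with 18 and 146 reads, lies far below the cloud, while the region 28.2 to 27.6 kb downstream lies within it.

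The stretch between both promoter windows, 102.7 kb that includes most of the Il21 gene, held 729 STAT3-deficient and 784 wild-type H3K4me3 reads. This is 7.10 reads per kb in STAT3-deficient and 7.63 in wild-type cells. Its log2 ratio was -0.40 (-0.55 to -0.25) on the scale of marked regions and -0.081 (-0.23 to 0.07) by library totals. The scaling itself moves background reads by 0.32 log2 units, since the STAT3-deficient library had more of its reads in marked regions, and by library totals the interval of this stretch includes no difference. Of the 13 bins of 10 kb outside the one at the Il21 start, log2 ratios by library totals ran from -0.61 to 0.64, and 2 had an interval that excluded 0. One of them is the bin from 11.2 to 1.2 kb downstream of the Il21 start, with 78 STAT3-deficient and 120 wild-type reads, a log2 ratio by library totals of -0.60. This bin includes the downstream end of the Il21 promoter window, so it is not separate from the promoter difference. The segment 1500 to 2000 bp downstream, which lies in both, held 6 STAT3-deficient and 16 wild-type reads. The other bin lies from 71.2 to 61.2 kb downstream, with 75 and 49 reads and a log2 ratio by library totals of 0.64. Neither bin reached 2-fold. The share of 10 kb bins over the genome with such an interval was not counted, so these bins are not read as a result.

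The phospho-STAT3 library asks where STAT3 lay in wild-type cells. Il21 was flanked by strong phospho-STAT3 sites, and Il2 had sites further upstream but none at its start. In all, 13 sites lay in the 140 kb, against a median of 0 in bins of that length over the genome. Of 17780 such bins with at least 100 phospho-STAT3 reads, 0.231% held as many. The genome held 27067 sites, with a median of 21 reads in the highest 200 bp window, and 10 of the 13 sites of the locus were above that median. No input library and no phospho-STAT3 library from STAT3-deficient cells was analysed here, so a site is an excess over its surroundings and nothing more. Called by the same rule, the site 0.9 kb downstream of Il21 was also found in the wild-type H3K4me3 library and that 28.2 kb downstream in the STAT3-deficient one.

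The strongest site of the locus, from 37129950 to 37130549, had its summit 0.9 kb downstream of the Il21 start, on the transcribed side. It held 132 reads (110 to 157) where 13.2 were expected from the surrounding 10 kb, and ranked 84 of 27067. Its reads were even by strand, 66 on each, and the median minus-strand position lay 103 bp beyond the median plus-strand position, the offset that short fragments around one point give. In the same 200 bp there were 0 STAT3-deficient and 3 wild-type H3K4me3 reads, and the adjoining 200 bp windows held 8 and 18 wild-type reads. The phospho-STAT3 summit thus had fewer wild-type H3K4me3 reads than its neighbours, but 3 and 8 reads are too few to show a dip.

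A second site at Il21, from 37131750 to 37132099, had its summit 0.7 kb upstream of the start with 60 reads (45.8 to 77.2), 4.78 times the local expectation. Here the 200 bp at the summit held 2 STAT3-deficient and 16 wild-type H3K4me3 reads, so this summit lay within the marked stretch. The whole promoter window of Il21 held 430 phospho-STAT3 reads, against 32 in the same window of Il2. In reads per kb, the Il21 region was in the top 3.78% of marked regions for phospho-STAT3, at 72.9. The region begins 0.8 kb downstream of the start, so the summit at 0.9 kb lies outside it. The other called regions were also dense, at 73.0 from 37128600 to 37129599, too thin to count as marked, and 63.3 from 37103000 to 37103599.

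At Il2, the nearest sites were upstream. One had its summit 2.9 kb upstream of the start, from 37027200 to 37027699, with 49 reads (36.3 to 64.8), 16.3 times the local expectation and rank 1570. A weaker one 2.05 kb upstream, from 37026400 to 37026649, held 20 reads and ranked 16532. The first 2 kb downstream of the Il2 start held 6 phospho-STAT3 reads, 3.0 per kb, below the locus background of 10.1 reads per kb. Neither upstream site lay in a called H3K4me3 region.

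Between the genes, sites lay in small groups, given here by distance downstream of the Il21 start. A pair at 12.6 and 13.0 kb held 31 and 39 reads. A group at 22.6, 26.7 and 28.2 kb held 62, 34 and 27 reads, of which the first, from 37108350 to 37108899, ranked 927 and was the second strongest of the locus by excess over its surroundings. The weakest of that group overlaps the short H3K4me3 region described above. A further pair at 57.9 and 58.9 kb held 27 and 32 reads, and a lone site at 79.9 kb held 18. Upstream of Il21 the remaining site, 11.75 kb away, held 14 reads.

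The last comparison asks whether H3K4me3 near these sites differed between genotypes. Within 1 kb of the summit, 12 of the 13 sites had at least 20 H3K4me3 reads in both libraries together. Of these, 4 passed the 2-fold rule as lower in STAT3-deficient cells and 0 as higher. Over the genome, 5.15% of 23755 such sites passed as lower and 0.522% as higher. By library totals, 367 of these 23755 sites (1.54%) passed as lower and 475 as higher, so the genome-wide lean towards lower turned over with the scaling. In the locus, 3 of the 12 passed as lower and 0 as higher by library totals.

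Both sites at Il21 were among the 4, and they share most of their H3K4me3 reads with the promoter window. Around the site 0.9 kb downstream there were 13 STAT3-deficient and 74 wild-type reads, and around that 0.7 kb upstream 10 and 91, log2 ratios of -2.81 (-3.78 to -1.94) and -3.48 (-4.59 to -2.54). The others were the pair 57.9 and 58.9 kb downstream, which lie so close that their windows overlap. The site at 58.9 kb had 8 STAT3-deficient and 26 wild-type reads, a log2 ratio of -2.00 (-3.35 to -0.81). That at 57.9 kb had 17 and 29 reads, a log2 ratio of -1.07 (-2.02 to -0.15), which by library totals was -0.75 (-1.70 to 0.17) and so no longer passed.

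The sites near Il2 had H3K4me3 counts whose intervals overlap between genotypes. There were 12 STAT3-deficient and 18 wild-type reads around the site 2.9 kb upstream of Il2, and 18 and 24 around that 2.05 kb upstream. At the strong site 22.6 kb downstream of Il21 there were 13 and 20 reads. These sites lay outside the called H3K4me3 regions, as did the pair 57.9 and 58.9 kb downstream of Il21 that passed the rule. A strong phospho-STAT3 site was thus present without a detectable H3K4me3 difference as well as with one in this locus, at counts where a difference of 2-fold could be missed.

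**Figure D5:**
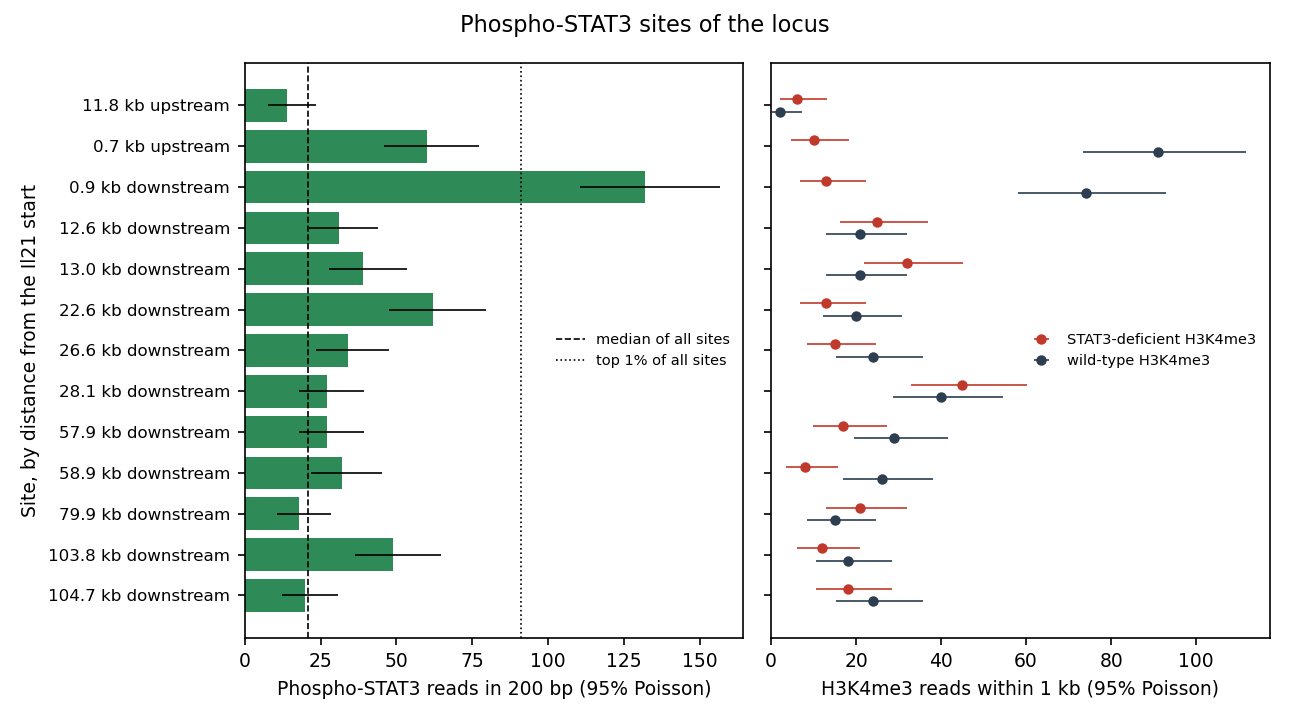
Phospho-STAT3 reads at the 13 sites (left) and H3K4me3 reads within 1 kb of each in STAT3-deficient and wild-type cells (right), with 95% Poisson intervals, ordered by position from upstream of Il21 at the top to near Il2 at the bottom. The site 0.9 kb downstream of Il21 reaches 132 reads, and H3K4me3 intervals are widely separated at it and at the site 0.7 kb upstream.

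By log2 ratio the Il21 region ranked 2 from the lowest of all 10971 marked regions, so it was not the lowest. At least 8-fold lower were 3 of them, Il21 included. Elsewhere in the genome, the 3 marked regions most like the Il21 region by log2 ratio, among 7777 with between 0.5 and 2 times as many reads, were less extreme. They lay on chromosome 17 from 80111800 to 80113799 with 18 STAT3-deficient and 110 wild-type reads, on chromosome 8 from 122516400 to 122517799 with 20 and 111, and on chromosome 1 from 20721000 to 20722399 with 18 and 98. Their log2 ratios were -2.91, -2.77 and -2.74, from the 2 H3K4me3 libraries alone, and no gene was placed on them. The numbers of phospho-STAT3 sites within 1 kb of them were 0, 1 and 3, and within 10 kb 1, 3 and 6, in the same order. A site as strong as that 0.9 kb downstream of Il21 lay within 1 kb of 21 of the 10971 marked regions, 0.191%, and 4 of the 127 lower ones, the Il21 region included, were among them.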

How the data were processed

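The 3 libraries were analysed, 1 per group. The deposited files hold aligned reads, 1 per line with start, end, strand and a match code, so no count or other unit was taken as given by the authors. Per the submitters' processing notes the build was mm9 and SICER was used; no aligner and no SICER version is given in the sources used here. Each read covers 25 bp, and no position and strand repeats. Per the labels' protocols, libraries had 18 PCR cycles and fragments of about 250 bp with adapters; reads carry no molecular identifiers.

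Reads were moved 75 bp towards the fragment centre. H3K4me3 regions were windows of 200 bp holding 12 or more pooled reads (Poisson p of 1e-05, taking a share of 0.8 of the genome as mappable), joined over gaps up to 600 bp, at least 2 windows. Phospho-STAT3 sites were windows of 200 bp taken every 50 bp that held 10 or more reads, some on each strand, at Poisson p under 1e-08 against whichever density was larger, that of the genome or of the surrounding 10 kb; overlapping ones were merged. Excess is the highest window count minus that expectation. Counts have exact Poisson intervals, ratios Clopper-Pearson intervals, and the ratio of ratios a conditional exact interval. The genes, windows and lists were chosen with earlier results of these data known. The text names Il2, Il21, all called regions of the locus, the 12 sites with the largest excess (the other is added for completeness) and the 3 regions nearest in ratio. Preset lists of pathway and marker genes were not run, because no mm9 annotation was used here. The fold rule and site caller were tested on simulated data. Alternatives were other scalings, read shifts, window widths, subtracted background and calling settings. Python 3.11.15, numpy 2.4.6, scipy 1.17.1, pandas 2.3.3 and matplotlib 3.10.9 were used.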

Additional observations from a re-analysis of the deposited data

How the results depend on the processing

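The log2 ratio of the Il21 window stayed lower in STAT3-deficient cells under the 7 alternatives that could move it; keeping all deposited reads could not, since none repeats. It was -2.13 with 5 kb each side, and -5.95 with background subtracted, where the net STAT3-deficient count was set at a floor of 3 reads. The ratio of ratios was -1.62 with 5 kb and -5.78 with that subtraction. The stretch between the promoters had log2 ratios of -0.081 by library totals, 0.049 by the locus background and -0.087 with background subtracted, against -0.40, so its direction is not read as a result. The Il2 ratio ran from -0.50 to 0.07. The 3 called regions became 1 on the wild-type library alone (that at Il21), 1 on the STAT3-deficient library alone (that 28.2 to 27.6 kb downstream) and 1 with windows of 500 bp, and 4 with gaps up to 200 bp. The 13 sites became 8 at Poisson p under 1e-12 and 23 by genome-wide density alone, which overlapped 8 and 12 of the 12 named sites. Over all marked regions, 127 lower and 111 higher became 54 and 319 by library totals, and 40 and 56 where a marked region needed 100 reads. No paired analysis was possible because each group held 1 library, and none could be left out. Depth limits the Il2 window: its interval spans from 2.16-fold lower to 0.35 log2 units higher.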

Other observations

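The match code of the reads, used in no comparison above, showed no excess of mismatched reads in the locus. At least 1 mismatch was carried by 4.07% of the 885 STAT3-deficient H3K4me3 reads (Clopper-Pearson 95% interval 2.87 to 5.59), 2.88% of the 1111 wild-type H3K4me3 reads (1.98 to 4.04) and 3.44% of the 2125 phospho-STAT3 reads (2.70 to 4.30). Of all reads of these libraries, 3.97%, 3.90% and 4.58% carried one, given in that order.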
